A study of Mus musculus with 13 samples.

Results

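The 34 mouse genes described here make sterols and fatty acids, control that synthesis, or move cholesterol out of cells. They were taken by name from the expression tables, in which each had 1 row. Synthesis accounts for 30 of them. Of these, 2 make cytosolic acetyl-CoA or join its units, 6 belong to the mevalonate pathway and 11 make squalene and carry it to cholesterol. Of the rest, 5 control synthesis, 1 transfers sterol between membranes and 5 make and modify fatty acids. The 4 export genes are Abca1, Abcg1, Nr1h2 and Nr1h3. A filter on low counts kept 14875 genes of the tables, 33 of the 34 among them. The exception was Insig2, which encodes a relative of the sterol sensor Insig1 and was listed at 0 in all 13 libraries; a 0 in every library can be a failed estimate and does not show that the gene was not expressed.

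Expression was measured by RNA sequencing of polyadenylated RNA in 13 brain hemispheres of 7 mice, which were C57BL/6 wild type, male and 12 to 16 weeks of age. The tissue was taken on day 4 after controlled cortical impact (CCI), which injures the exposed cortex with a driven tip to model brain trauma, or after a sham operation. CCI animals 1, 2, 3 and 5 gave 4 ipsilateral libraries, from the side of surgery, against 2 sham ipsilateral libraries from animals 4 and 6. The same CCI animals gave 4 contralateral libraries, against 3 sham contralateral libraries from animals 4, 6 and 8. Libraries with the same number are the hemispheres of the same animal. The labels name no altered allele and no drug. All ipsilateral samples are marked RH in their names and all contralateral ones LH, so side of surgery and right or left cannot be told apart.

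Cholesterol in the brain is made locally, because lipoproteins of the blood do not cross the blood-brain barrier, and much of it is held in myelin. When membranes of the endoplasmic reticulum are poor in sterol, the escort protein Scap carries the transcription factors Srebf1 and Srebf2 to the Golgi, where they are cut and released to switch on synthesis genes; Insig proteins hold the complex back when sterol is plentiful. Oxidized sterols bind the liver X receptors, encoded by Nr1h2 and Nr1h3, which switch on the export pumps Abca1 and Abcg1 and also Srebf1.

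The promoters of 5 members are shown because synthesis genes that fell together are set against the export gene that rose, and because Abca1 and Fasn share a run of 18 bases. Each is the RefSeq window on GRCm38.p6 from 250 bases before to 50 bases after a transcription start, written along the strand of the gene. Such a window was found for 27 of the 34 members and for 27025 genes in all. None was used here for Fdps, Fdft1, Sqle, Stard4, Scd1, Scd2 or Abcg1. The windows are Hmgcs1 at chr13:119690101-119690400 (plus strand), Mvd at chr8:122443373-122443672 (minus), Insig1 at chr5:28071162-28071461 (plus), Abca1 at chr4:53159846-53160145 (minus) and Fasn at chr11:120824498-120824797 (minus). Capitals mark every match, on either strand, to 4 motifs: TCACNCCAC, a form of the sterol regulatory element; CCAAT, the box bound by nuclear factor Y; the direct repeat bound by liver X receptors, AGGTCA and again AGGTCA with NNNN between them; and TGACCGGTAGTAACCCCG, the longest run of bases that the Abca1 window shares with the window of any other member.
Hmgcs1: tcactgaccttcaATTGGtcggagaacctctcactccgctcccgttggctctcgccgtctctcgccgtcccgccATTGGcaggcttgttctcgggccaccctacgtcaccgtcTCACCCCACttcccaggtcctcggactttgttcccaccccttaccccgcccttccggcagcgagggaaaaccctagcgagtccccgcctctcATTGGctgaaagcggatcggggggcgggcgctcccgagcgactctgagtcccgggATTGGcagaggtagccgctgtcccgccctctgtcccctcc
Mvd: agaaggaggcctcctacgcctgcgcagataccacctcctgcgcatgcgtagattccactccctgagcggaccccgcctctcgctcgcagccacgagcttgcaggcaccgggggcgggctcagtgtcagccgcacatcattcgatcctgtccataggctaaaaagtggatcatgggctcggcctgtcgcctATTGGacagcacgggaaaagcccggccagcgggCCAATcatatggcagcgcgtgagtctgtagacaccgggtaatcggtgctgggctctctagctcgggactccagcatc
Insig1: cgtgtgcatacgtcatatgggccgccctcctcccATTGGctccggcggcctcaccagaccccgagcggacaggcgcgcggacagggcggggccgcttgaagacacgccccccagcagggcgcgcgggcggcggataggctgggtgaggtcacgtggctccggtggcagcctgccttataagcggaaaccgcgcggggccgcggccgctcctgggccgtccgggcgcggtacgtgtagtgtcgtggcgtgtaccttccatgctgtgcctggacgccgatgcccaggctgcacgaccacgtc
Abca1: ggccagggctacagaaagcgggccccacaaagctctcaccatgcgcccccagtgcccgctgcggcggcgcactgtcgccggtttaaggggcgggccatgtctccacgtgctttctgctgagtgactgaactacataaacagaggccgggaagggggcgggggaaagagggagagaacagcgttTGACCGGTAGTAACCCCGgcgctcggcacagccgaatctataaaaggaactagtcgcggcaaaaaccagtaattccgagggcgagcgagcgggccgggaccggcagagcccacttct
Fasn: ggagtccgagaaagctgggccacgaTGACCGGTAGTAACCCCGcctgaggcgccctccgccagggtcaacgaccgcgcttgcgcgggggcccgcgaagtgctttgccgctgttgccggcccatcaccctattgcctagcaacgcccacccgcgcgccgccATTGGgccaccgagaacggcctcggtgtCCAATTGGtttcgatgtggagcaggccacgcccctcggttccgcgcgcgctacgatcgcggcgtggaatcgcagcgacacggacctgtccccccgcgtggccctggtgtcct
Hmgcs1 held 1 match to the sterol regulatory element and 4 CCAAT boxes, Mvd held 2 CCAAT boxes and Insig1 held 1. The Abca1 window held no CCAAT box and the shared run once, and the Fasn window held that run once and 3 CCAAT boxes, of which a pair on opposite strands overlap.

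Among all members with a window, CCAAT was found in 20 of 27, against 41.1% of all genes with a window. It was present in 11 of the 12 windowed members that were lower in the CCI ipsilateral hemisphere and in 9 of the other 15. This difference was not tested. Some genes have more than 1 window, at different starts, and a gene was counted if any of its windows matched. Dhcr7, among the 11, matched only in its window at chr7:143829964-143830263 and not in those that begin at 143822917 and 143823149. TCACNCCAC was found in 1 member of 27 and in 1.44% of all genes. The exact direct repeat was found in 0 of 27 members and in 0.0148% of all genes. An exact search leaves out variant forms, so 0 does not show that no site for liver X receptors is present. The 18-base run occurred in 2 genes of the 27025 (0.0074%), Abca1 and Fasn. Read on the opposite strand, the run holds GGGTTA and CGGTCA with NNNN between them. This resembles the direct repeat without matching it exactly, and its binding was not tested. The run was picked out by comparing these windows, and the next longest run shared with Abca1 was of 13 bases, in Srebf1. These are matches of letters in a short window and not measured binding sites.

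Total counts ran from 5604856 to 7955076 per library. On the first principal component of the most variable genes the CCI ipsilateral libraries lay between -34.42 and -22.6 and the other 9 between 5.1 and 18.32; the sign is arbitrary. Lists of markers of mature oligodendrocytes, astrocytes, neurons, microglia and macrophages, and endothelium, 38 genes in all, were detected, with none at 0. Markers of microglia and macrophages summed to 722 to 1102 CPM (counts scaled to library size) in CCI ipsilateral libraries, against 182 to 189 CPM in sham ipsilateral libraries. Neuronal markers summed to 5441 to 6004 CPM in CCI ipsilateral libraries, against 7379 to 7822 CPM in sham ipsilateral ones. Astrocyte markers summed to 6174 to 7846 CPM in CCI ipsilateral libraries, against 4821 to 5146 CPM in sham ipsilateral ones. Oligodendrocyte markers, from the cells that make myelin, summed to 7539 to 8639 CPM in CCI ipsilateral libraries, against 6925 to 7130 CPM in sham ipsilateral ones.

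Per transcript length, in TPM averaged over the 13 libraries, the most abundant member was Scd2 (816 TPM, range 747 to 872), the main stearoyl-CoA desaturase of brain. Hmgcs1 (212 TPM, 142 to 255), Scd1 (129 TPM, 120 to 144), Acly (109 TPM, 98.9 to 121) and Msmo1 (102 TPM, 73.4 to 130) came next, and the ranges of Scd1, Acly and Msmo1 overlap. Of the export genes, Nr1h2 averaged 46.3 TPM, Abcg1 37.0 TPM, Abca1 19.9 TPM and Nr1h3 4.10 TPM. Abca1 ran from 11.5 to 38.9 TPM over the libraries, and Nr1h3 from 2.06 to 7.196 TPM.

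**Figure D1:**
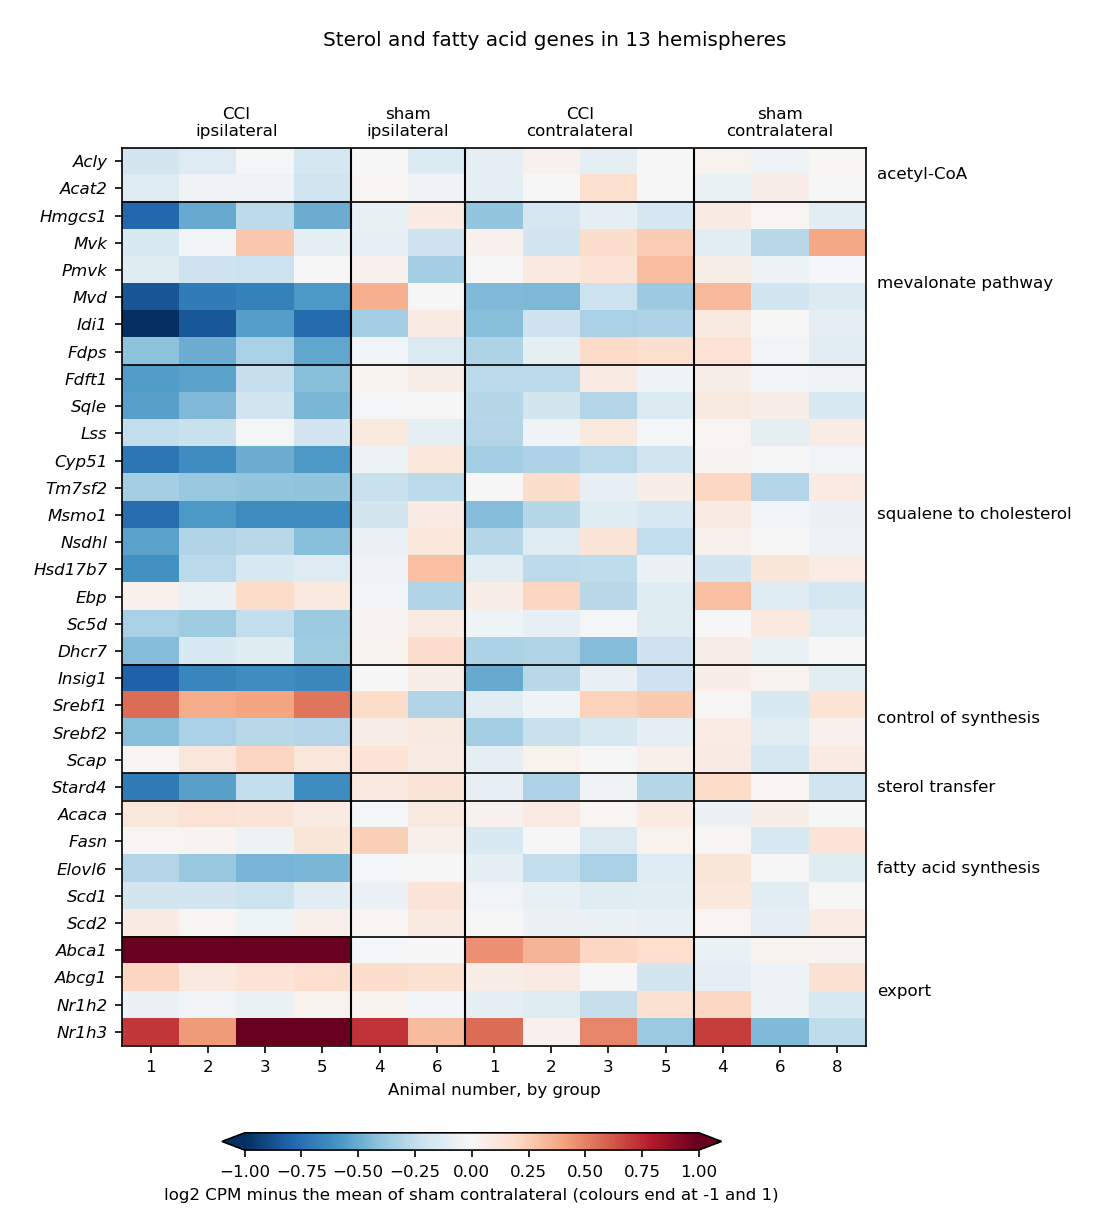
Log2 CPM of the 33 tested members (rows, by role) in 13 hemispheres (columns, by group and animal), each minus the mean of the sham contralateral libraries, with colours ending at -1 and 1. In the CCI ipsilateral columns most mevalonate and squalene-to-cholesterol rows are blue, while Abca1 is deep red in all 4.

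The comparison of CCI with sham in the ipsilateral hemisphere asks how the injured side differed from the same side after surgery without impact. Genes of sterol synthesis were lower in the injured hemisphere and the cholesterol pump Abca1 was higher. Of 33 members tested, 17 fell and 2 rose, against 10% and 12.5% of all 14875 genes tested in those directions (22.5% in either). The members that fell included 12 of the 17 enzymes of the mevalonate pathway and the path from squalene synthesis to cholesterol, with none higher. Those that rose were Abca1 and the transcription factor Srebf1. The groups did not overlap, with every CCI library below both sham libraries, for 18 members, against 19.6% of all genes, and every CCI library lay above both for 2, against 21.8%. A log2 fold change below 0 was found in 25 members, against 49.4% of all genes. The median log2 fold change was -0.21 over the 33 members, -0.40 over the 17 enzymes and 0.004 over all genes. The members were chosen with earlier results of these data known, so these shares and medians do not test them as a set. In whole hemispheres, fewer cells of a type and less RNA per cell cannot be told apart. The part that the shifts in neuronal, astrocyte, microglial and oligodendrocyte markers have in these values was not tested. A change was called at an adjusted p under 0.05, by edgeR's quasi-likelihood test with Benjamini-Hochberg adjustment over all genes tested, and every adjusted p below is from that test unless another is named.

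Acly and Acat2, the members that make cytosolic acetyl-CoA or join its units, did not pass the test. Acly, which makes cytosolic acetyl-CoA from citrate, had 181, 188, 205 and 183 CPM in CCI ipsilateral libraries, against 205 and 187 CPM in sham ipsilateral libraries (log2 fold change -0.05 ± 0.07 (SE), adjusted p = 0.632). Acat2, which joins acetyl-CoA units, had 44.7, 47.7, 47.8 and 42.7 CPM in CCI ipsilateral libraries, against 49.8 and 47.7 CPM in sham ipsilateral ones (log2 fold change -0.09 ± 0.09 (SE), adjusted p = 0.513). The groups overlap for both genes. Acat2 has a near-identical neighbour, Acat3, so the division of reads between them is less certain.

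In the mevalonate pathway 4 of 6 genes fell, with a median log2 fold change of -0.43. Hmgcs1 (chromosome 13, 119690379 to 119708260, GRCm38), which makes the precursor of mevalonate, had 204, 249, 295 and 251 CPM in CCI ipsilateral libraries, against 336 and 375 CPM in sham ipsilateral libraries. All 4 injured hemispheres lay below both sham ones, animal 1 the lowest. The difference was 1.42-fold (log2 fold change -0.51 ± 0.12 (SE), adjusted p = 0.00989); without sham ipsilateral animal 6 it was -0.43 and no longer passed (adjusted p = 0.13). Mvd (chromosome 8, 122433601 to 122443422), which makes isopentenyl diphosphate, showed the steepest fall of the 34 genes. It had 11.4, 12.7, 12.9 and 13.8 CPM in CCI ipsilateral libraries, against 26.3 and 20.7 CPM in sham ipsilateral libraries. The CCI values were tightly grouped and the sham values were not, with no overlap; the fall was 1.84-fold (log2 fold change -0.88 ± 0.14 (SE), adjusted p = 2.97e-05). Idi1, which isomerizes isopentenyl diphosphate, had 43.9, 49.6, 60.8 and 52.3 CPM in CCI ipsilateral libraries, against 69.9 and 94.05 CPM in sham ipsilateral ones. Again every injured hemisphere lay below both sham ones, and Idi1 fell 1.59-fold (log2 fold change -0.67 ± 0.11 (SE), adjusted p = 0.000235). Pmvk, the kinase between Mvk and Mvd, had 29.2, 27.6, 27.5 and 31.8 CPM in CCI ipsilateral libraries, against 32.9 and 25.2 CPM in sham ipsilateral ones, and the sham values lie on either side of the CCI values (log2 fold change 0.01 ± 0.11 (SE), adjusted p = 0.973). Fdps, which builds farnesyl diphosphate, fell (log2 fold change -0.35 ± 0.11 (SE), adjusted p = 0.0231), and Mvk, the kinase of mevalonate, did not pass (log2 fold change 0.15 ± 0.17 (SE), adjusted p = 0.583).

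From the synthesis of squalene to cholesterol 8 of 11 genes fell, with a median of -0.40. Cyp51 (chromosome 5, 4081145 to 4104746), the demethylase of lanosterol, had 52.9, 56.7, 61.9 and 58.8 CPM in CCI ipsilateral libraries, against 84.4 and 94.7 CPM in sham ipsilateral libraries. The gap between the groups was wider than either spread, and Cyp51 fell 1.56-fold (log2 fold change -0.64 ± 0.08 (SE), adjusted p = 2.55e-07). Msmo1, which oxidizes a methyl group of the sterol at a later step, had 66.5, 75.5, 72.9 and 73.1 CPM in CCI ipsilateral libraries, against 99.0 and 119 CPM in sham ipsilateral libraries. Its groups did not overlap either, and it fell 1.52-fold (log2 fold change -0.60 ± 0.08 (SE), adjusted p = 3.68e-06). Fdft1, the squalene synthase, had 62.6, 63.5, 78.6 and 68.5 CPM in CCI ipsilateral libraries, against 94.5 and 96.0 CPM in sham ipsilateral libraries. Animal 3 was the highest of the injured hemispheres and still below both sham ones; the fall was 1.4-fold (log2 fold change -0.48 ± 0.09 (SE), adjusted p = 0.000356). Tm7sf2, a sterol reductase, had 15.02, 14.7, 14.5 and 14.5 CPM in CCI ipsilateral libraries, against 16.4 and 15.9 CPM in sham ipsilateral libraries. All 4 CCI values were below both sham values, but the difference was small and did not pass (log2 fold change -0.13 ± 0.14 (SE), adjusted p = 0.548). Sqle, the epoxidase of squalene, Nsdhl and Hsd17b7, which act with Msmo1 in demethylation, Sc5d, a desaturase, and Dhcr7, the reductase that yields cholesterol, also fell, with log2 fold changes from -0.42 (Hsd17b7) to -0.37 (Dhcr7) and adjusted p from 0.000722 (Sc5d) to 0.0453 (Dhcr7). Lss, the lanosterol synthase (-0.16), and Ebp, a sterol isomerase (0.23), did not pass. The call of Dhcr7 was close to the threshold and was lost under 11 of the 22 alternatives, with DESeq2 (adjusted p = 0.137), no filter on low counts (0.0832) and only the 2 groups compared (0.069) among them. That of Fdps was lost under 7, the 3 limma fits on TPM among them (0.0949 to 0.174).

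Without sham ipsilateral animal 6, which leaves 1 library in that group, assumed to vary like the other groups, 11 members stayed lower and 1 higher. The calls lost were Hmgcs1, Fdps, Nsdhl, Hsd17b7, Dhcr7, Scd1 and Srebf1, while 26 of 33 members had a log2 fold change below 0. Exons of Hmgcs1, Idi1, Fdft1, Lss, Cyp51, Srebf1, Scap and Elovl6 are overlapped by a gene on the opposite strand (Ctsb for Fdft1 and Akap9 for Cyp51). Those of Fdps, Tm7sf2, Srebf1, Scd2 and Nr1h3 are overlapped by another gene on the same strand (Gm43738, Vps51, Mir6922, Mir5114 and Gm13783). Use of strand in counting was not given in the sources used here.

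**Figure D2:**
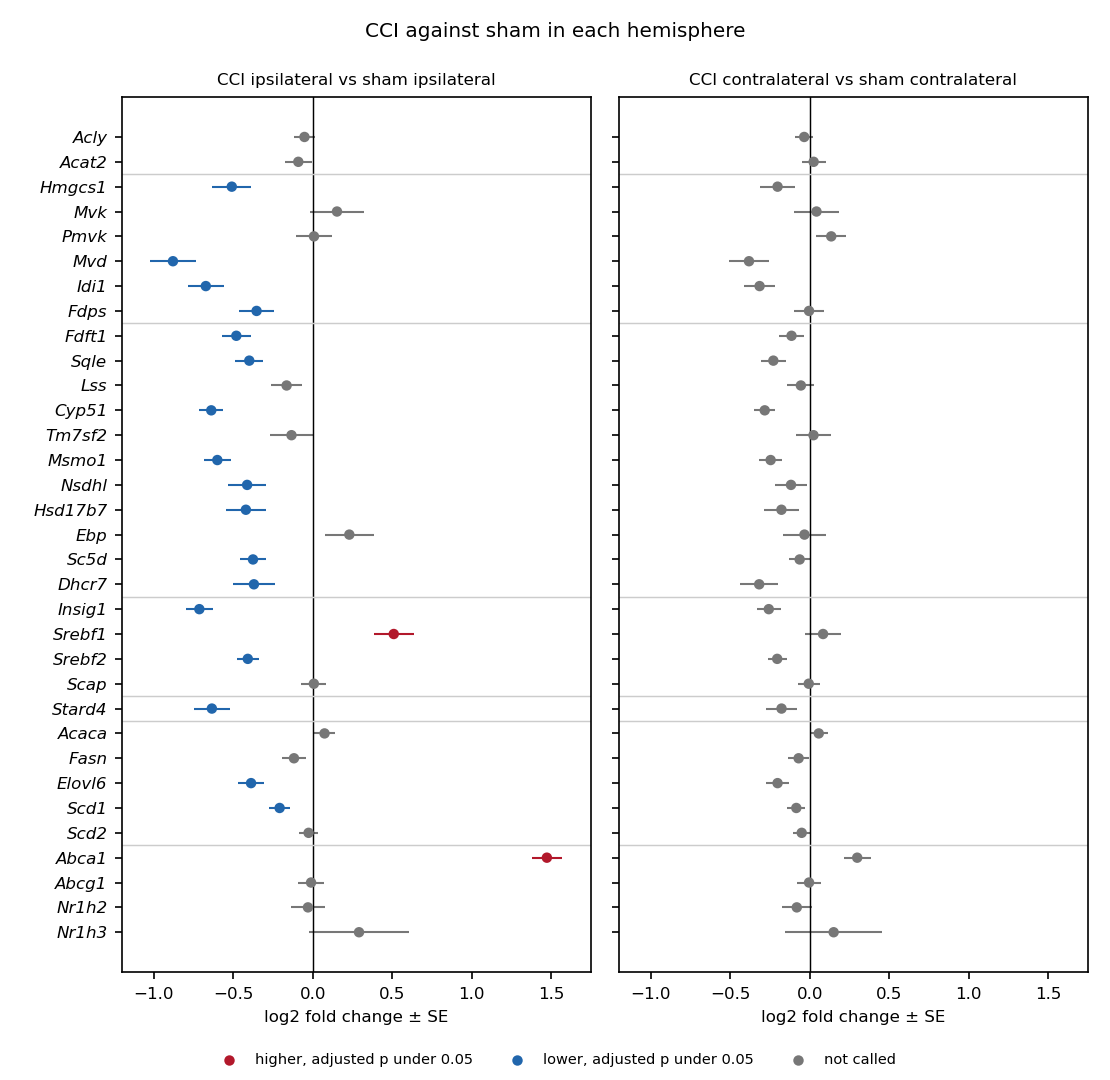
Log2 fold change of CCI against sham with its SE for the 33 tested members, in the ipsilateral (left) and the contralateral hemisphere (right), in red or blue where the adjusted p was under 0.05. On the left 17 members are lower and 2 higher; on the right none passes, and 25 of 33 lie below 0.

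Among the genes that control synthesis, Insig1 and Srebf2 fell, Srebf1 rose and Scap did not pass. Insig1 (chromosome 5, 28071363 to 28078662), the sterol sensor that holds the Scap complex back and is itself switched on by Srebf factors, had 55.0, 61.2, 62.4 and 61.4 CPM in CCI ipsilateral libraries. It had 96.4 and 100.4 CPM in sham ipsilateral libraries, so the groups were far apart, with a fall of 1.64-fold (log2 fold change -0.71 ± 0.09 (SE), adjusted p = 4.71e-07). Srebf2, the main driver of sterol genes, had 156, 167, 173 and 170.3 CPM in CCI ipsilateral libraries, against 219 and 223 CPM in sham ipsilateral libraries. The spread within each group was small beside the difference between them, a fall of 1.33-fold (log2 fold change -0.41 ± 0.07 (SE), adjusted p = 3.93e-05). Srebf1, which mainly drives fatty acid genes, went the other way, with 79.4, 70.1, 70.9 and 78.1 CPM in CCI ipsilateral libraries, against 61.5 and 43.9 CPM in sham ipsilateral libraries. All 4 injured hemispheres lay above both sham ones, of which animal 6 was well below animal 4. The rise was 1.42-fold (log2 fold change 0.51 ± 0.13 (SE), adjusted p = 0.00706), and without animal 6 it was 0.28 with an adjusted p of 0.197. Scap had 78.7, 84.5, 90.6 and 84.6 CPM in CCI ipsilateral libraries, against 85.9 and 82.6 CPM in sham ipsilateral libraries, which overlap (log2 fold change 0.01 ± 0.08 (SE), adjusted p = 0.965). Insig2 was listed at 0 in every library, and no fold was computed.

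Stard4, a carrier that moves cholesterol between membranes and is a target of Srebf2, had 31.9, 35.7, 43.8 and 33.8 CPM in CCI ipsilateral libraries, against 55.6 and 56.9 CPM in sham ipsilateral libraries. Its groups did not overlap, with animal 3 the highest of the injured hemispheres, and it fell 1.55-fold (log2 fold change -0.64 ± 0.11 (SE), adjusted p = 0.000171).

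Fatty acid synthesis was divided: 2 of 5 genes fell and 3 did not pass, with a median of -0.12. Acaca, the acetyl-CoA carboxylase of the committed step, had 114, 116, 115 and 111 CPM in CCI ipsilateral libraries, against 104 and 112 CPM in sham ipsilateral libraries (log2 fold change 0.07 ± 0.06 (SE), adjusted p = 0.467). Fasn, the fatty acid synthase, had 278, 281, 267 and 301 CPM in CCI ipsilateral libraries, against 326 and 287 CPM in sham ipsilateral libraries (log2 fold change -0.12 ± 0.07 (SE), adjusted p = 0.281). Both overlap between groups. Elovl6, which lengthens palmitate, had 68.3, 64.3, 60.6 and 60.9 CPM in CCI ipsilateral libraries, against 82.5 and 83.8 CPM in sham ipsilateral libraries. The groups were well separated and Elovl6 fell 1.31-fold (log2 fold change -0.39 ± 0.08 (SE), adjusted p = 0.000538). Scd1, a stearoyl-CoA desaturase, had 258, 257, 253 and 272 CPM in CCI ipsilateral libraries, against 281 and 319.7 CPM in sham ipsilateral libraries, its values not overlapping. It fell 1.16-fold (log2 fold change -0.21 ± 0.06 (SE), adjusted p = 0.0176), a call that was lost without sham ipsilateral animal 6 (log2 fold change -0.11, adjusted p = 0.434). Scd2, the most abundant member, had 2111, 2014, 1936 and 2064 CPM in CCI ipsilateral libraries, against 2022 and 2115 CPM in sham ipsilateral libraries, which overlap (log2 fold change -0.03 ± 0.06 (SE), adjusted p = 0.806).

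Of the 4 export genes, Abca1 rose and the other 3 did not pass. Abca1 (chromosome 4, 53030787 to 53159895), which loads cholesterol onto apolipoproteins, had 156, 131, 171 and 163 CPM in CCI ipsilateral libraries, against 55.4 and 56.3 CPM in sham ipsilateral libraries. Even the lowest injured hemisphere, that of animal 2, was far above both sham values. The rise was 2.78-fold (log2 fold change 1.47 ± 0.10 (SE), adjusted p = 1.2e-11), and it passed under every alternative tried. Abcg1, a pump that passes cholesterol to lipoprotein particles and is also a target of liver X receptors, had 65.6, 60.7, 62.1 and 63.7 CPM in CCI ipsilateral libraries, against 64.1 and 63.0 CPM in sham ipsilateral libraries. These values overlap and the SE bounds the difference closely (log2 fold change -0.01 ± 0.08 (SE), adjusted p = 0.948). Nr1h2, the liver X receptor found in most tissues, had 36.2, 37.0, 36.3 and 38.6 CPM in CCI ipsilateral libraries, against 38.7 and 37.0 CPM in sham ipsilateral libraries (log2 fold change -0.03 ± 0.10 (SE), adjusted p = 0.879). Nr1h3, the liver X receptor prominent in macrophages, had 3.76, 3.08, 4.79 and 4.61 CPM in CCI ipsilateral libraries, against 3.79 and 2.87 CPM in sham ipsilateral libraries (log2 fold change 0.29 ± 0.31 (SE), adjusted p = 0.569). Both receptors overlap between groups, and the low counts of Nr1h3 leave a wide error. Abca1 is expressed by phagocytes as well as by astrocytes; the sum of the 8 microglia and macrophage markers was also higher in every CCI ipsilateral library, and its part in the Abca1 value was not tested.

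**Figure D3:**
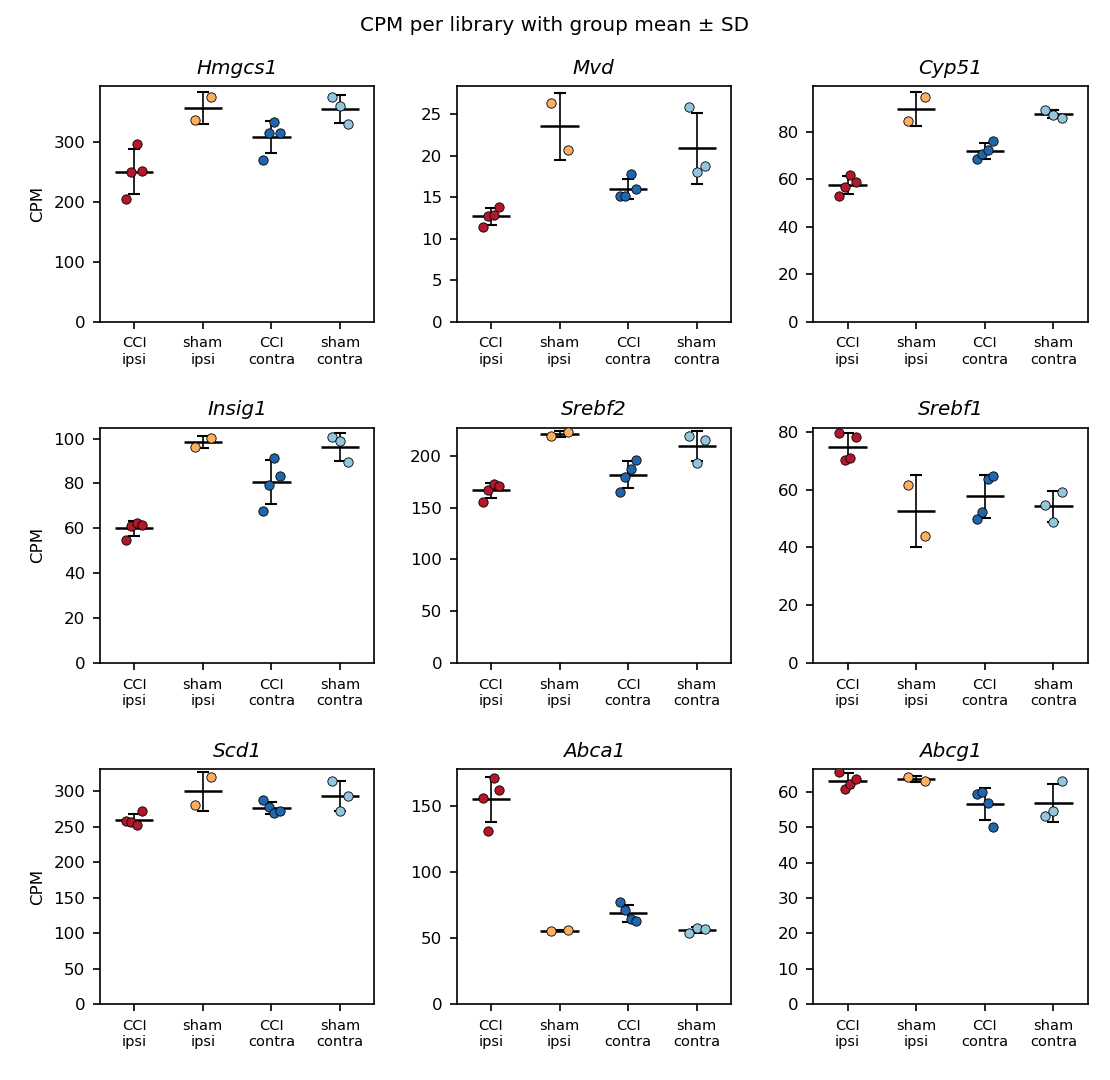
CPM per library (points) with the group mean and SD (bars) for 9 members in the 4 groups, each axis starting at 0. Hmgcs1, Mvd, Cyp51, Insig1, Srebf2 and Scd1 sit lower in CCI ipsilateral than in sham ipsilateral libraries, Srebf1 and Abca1 sit higher, and Abcg1 overlaps.

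The comparison of CCI with sham in the contralateral hemisphere asks whether the side opposite the impact differed as well. It has no library in common with the ipsilateral comparison, although the hemispheres come from the same animals. No member passed by edgeR's adjusted p, in which 0.0941% of all genes passed, and none passed by DESeq2 or by limma on TPM. At an unadjusted p under 0.05, 10 of 33 members stood out, against 6.86% of all genes, and 25 had a log2 fold change below 0, against 50.4% of all genes. The 10 were Mvd, Idi1, Sqle, Cyp51, Msmo1, Dhcr7, Insig1, Srebf2 and Elovl6, each lower in CCI, and Abca1, higher in CCI; each had been called in the same direction in the ipsilateral hemisphere. The median log2 fold change was -0.12 over the 17 enzymes, of which 14 were below 0, and -0.07 over the 33 members.

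Cyp51 had 68.6, 70.4, 72.3 and 76.2 CPM in CCI contralateral libraries, against 89.1, 87.1 and 85.8 CPM in sham contralateral libraries. No CCI value reached a sham value, and the difference was smaller than in the ipsilateral hemisphere (log2 fold change -0.28 ± 0.07 (SE), adjusted p = 0.103, unadjusted p = 0.000172). Mvd had 15.2, 15.1, 17.7 and 16.0 CPM in CCI contralateral libraries, against 25.8, 18.0 and 18.7 CPM in sham contralateral libraries. The groups do not overlap, but sham animals 6 and 8 lay close to the CCI values and sham animal 4 far above them (log2 fold change -0.38 ± 0.13 (SE), adjusted p = 0.46). Idi1 had 66.4, 77.2, 71.1 and 71.9 CPM in CCI contralateral libraries, against 94.9, 88.8 and 83.8 CPM in sham contralateral libraries, without overlap (log2 fold change -0.32 ± 0.10 (SE), adjusted p = 0.443). Msmo1 and Dhcr7 did not overlap either. All told, 5 members lay wholly below sham and 1, Abca1, wholly above, against 3.36% and 4% of all genes. Insig1 had 67.8, 79.5, 91.3 and 83.5 CPM in CCI contralateral libraries, against 101, 98.8 and 89.3 CPM in sham contralateral libraries. Animal 3 overlapped the sham range and the others lay below it (log2 fold change -0.26 ± 0.08 (SE), adjusted p = 0.365).

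Abca1 had 77.3, 71.4, 64.9 and 63.2 CPM in CCI contralateral libraries, against 53.7, 57.8 and 57.4 CPM in sham contralateral libraries. Each of the 4 CCI values exceeded all 3 sham values, by 1.23-fold on the fit (log2 fold change 0.30 ± 0.09 (SE), adjusted p = 0.35). Srebf1 overlapped, at 57.6 ± 7.52 CPM in CCI contralateral libraries (SD, n = 4) and 54.2 ± 5.31 CPM in sham contralateral libraries (SD, n = 3). Abcg1 averaged 56.5 ± 4.55 CPM in CCI contralateral libraries (SD, n = 4) and 56.8 ± 5.31 CPM in sham contralateral libraries (SD, n = 3). Markers of microglia and macrophages summed to 257 to 317 CPM in CCI contralateral libraries, against 165 to 256 CPM in sham contralateral libraries. Neuronal markers summed to 6812 to 7095 CPM in CCI contralateral libraries, against 6832 to 7228 CPM in sham contralateral ones. The part of the microglial sum in these values was not tested. With no filter on low counts, Idi1, Cyp51 and Abca1 passed (adjusted p = 0.00651, 0.0269 and 0.0148), and with only the 2 groups in the fit, Idi1 and Cyp51 passed (0.0331 and 0.0499).

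The mean log2 difference of the 17 mevalonate and sterol enzymes from the sham contralateral mean places the 13 libraries side by side. It was -0.493, -0.394, -0.254 and -0.372 in CCI ipsilateral animals 1, 2, 3 and 5, against -0.032 and -0.014 in sham ipsilateral animals 4 and 6. In the contralateral hemisphere it was -0.226, -0.145, -0.092 and -0.079 in CCI animals 1, 2, 3 and 5, against 0.077, -0.052 and -0.026 in sham animals 4, 6 and 8. Every injured hemisphere lay below every other library, the CCI contralateral libraries lay below all sham libraries of either side, and CCI animal 1 was the lowest in both hemispheres. No test was made of this mean, since the genes were chosen with their results known.

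**Figure D4:**
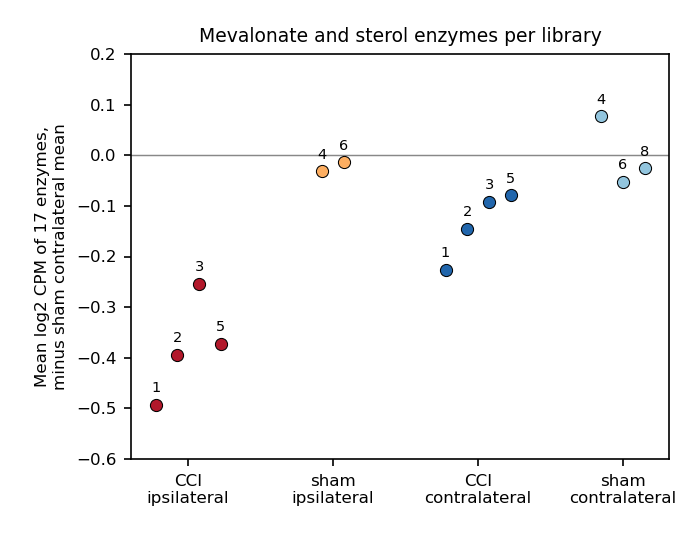
Mean log2 CPM of the 17 mevalonate and sterol enzymes in each library, minus the sham contralateral mean, with animal numbers. CCI ipsilateral libraries lie between -0.493 and -0.254 and CCI contralateral libraries between -0.226 and -0.079, while the 5 sham libraries lie between -0.052 and 0.077.

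The injured hemisphere was also compared with the opposite hemisphere of the same CCI animals. This comparison shares the CCI ipsilateral libraries with the ipsilateral comparison above and is not independent of it. The main fit did not pair libraries by animal, here or in the other comparisons between hemispheres. Pairing entered only in the alternatives with an animal block. Of 33 members, 11 were lower and 2 higher in the CCI ipsilateral hemisphere, against 8.9% and 12.8% of all genes in those directions (21.7% in either). The lower ones were Pmvk, Idi1, Fdps, Fdft1, Cyp51, Tm7sf2, Msmo1, Sc5d, Insig1, Stard4 and Elovl6, and the higher ones were Abca1 and Srebf1. The steepest fall was that of Idi1, 1.39-fold (log2 fold change -0.47 ± 0.09 (SE), adjusted p = 0.00117). Idi1 had 43.9, 49.6, 60.8 and 52.3 CPM in CCI ipsilateral libraries, against 66.4, 77.2, 71.1 and 71.9 CPM in CCI contralateral ones, without overlap. In all, 9 members lay wholly below the contralateral values and 3 wholly above, against 9.81% and 12.9% of all genes. Abca1 averaged 155 ± 17.1 CPM in CCI ipsilateral libraries and 69.2 ± 6.45 CPM in CCI contralateral libraries (SD, n = 4 each), a rise of 2.24-fold (log2 fold change 1.16 ± 0.07 (SE), adjusted p = 3.65e-12).

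Tm7sf2 and Pmvk passed here although they had not in the comparison with sham. Tm7sf2 had 15.02, 14.7, 14.5 and 14.5 CPM in CCI ipsilateral libraries, against 19.0, 21.5, 18.0 and 19.9 CPM in CCI contralateral libraries (log2 fold change -0.42 ± 0.11 (SE), adjusted p = 0.00436). Its sham ipsilateral libraries, at 16.4 and 15.9 CPM, were also below the CCI contralateral ones, and no value of the CCI ipsilateral group overlapped either. Pmvk had 29.2, 27.6, 27.5 and 31.8 CPM in CCI ipsilateral libraries, against 31.9, 34.1, 35.1 and 39.5 CPM in CCI contralateral libraries, just apart (log2 fold change -0.27 ± 0.09 (SE), adjusted p = 0.0243). The call of Pmvk was lost under 7 alternatives, with DESeq2 (adjusted p = 0.0557), the 3 limma fits on TPM (0.0773 to 0.142) and without CCI ipsilateral animal 2 or 3 (0.0802 and 0.0623) or CCI contralateral animal 5 (0.0961). That of Elovl6 was lost under 10, DESeq2 (0.0505) and the limma fits (0.176 to 0.211) among them, and that of Stard4 under the 3 limma fits (0.0931 to 0.16). With the animal as a fixed block, 15 members were lower in place of 11: Hmgcs1, Mvd, Nsdhl and Srebf2 then passed as well (adjusted p = 1.3e-05, 0.0239, 0.0319 and 0.0385).

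Sham ipsilateral and sham contralateral hemispheres differed in no member by edgeR's adjusted p, in which 0.00672% of all genes passed. No member had an unadjusted p under 0.05 either, against 6.1% of all genes, and DESeq2 and limma on TPM also called none. The median log2 difference over the members was 0.03. The groups were apart for 1 member, Abcg1, higher in sham ipsilateral, against 10.1% of all genes. Insig1, for example, averaged 98.4 ± 2.80 CPM in sham ipsilateral libraries (SD, n = 2) and 96.3 ± 6.12 CPM in sham contralateral libraries (SD, n = 3). Abca1 averaged 55.9 ± 0.607 CPM in sham ipsilateral libraries and 56.3 ± 2.24 CPM in sham contralateral ones. With the animal as a fixed block on the 2 paired sham animals, Fasn passed (log2 fold change 0.22, adjusted p = 0.0157). A fit on 2 pairs rests on few libraries, and sham animal 8 has no partner in it.

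The difference between these hemisphere effects, CCI minus sham, was tested for each gene. It passed for 4 of 33 members, against 7.83% of all genes: Cyp51, Msmo1 and Insig1 in the lower direction (3 members, against 2.99% of all genes), and Abca1 in the higher one (1, against 4.84%). For Insig1 the difference was -0.46 ± 0.12 on the log2 scale (SE, adjusted p = 0.0123), for Cyp51 -0.36 ± 0.10 (adjusted p = 0.0241) and for Msmo1 -0.35 ± 0.11 (adjusted p = 0.0451). For Abca1 it was 1.17 ± 0.13 (adjusted p = 1.73e-06). Unadjusted p was under 0.05 in 12 members, against 21.4% of all genes, and 24 members, 15 of the 17 enzymes among them, were below 0, against 48.9% of all genes. This difference equals the ipsilateral minus the contralateral effect of CCI, which for Insig1 were -0.71 and -0.26. The calls of Cyp51, Insig1 and Msmo1 were lost without sham ipsilateral animal 6 (adjusted p = 0.235, 0.0998 and 0.432), and all 3 were lost with limma on TPM (0.0547 to 0.317). That of Cyp51 was also lost without sham contralateral animal 8 (0.0515). That of Msmo1 was lost under 15 of the 22 alternatives, among them the random block for the animal (0.0536), DESeq2 (0.058), upper-quartile scaling (0.0586) and 9 of the fits that left out 1 library. Abca1 passed under all of them.

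A list of 36 further genes of sterol and fatty acid handling was set beside the members. The list was chosen with earlier results of these data known, so its shares and median do not test it as a set. Soat1, which esterifies cholesterol, was likewise listed at 0 in all libraries, which does not show that it was not expressed, and Osbp was not analysed here. In the CCI ipsilateral hemisphere 16 of the 34 tested were higher and 2 lower than in sham ipsilateral, against 12.5% and 10% of all genes in those directions, with a median log2 fold change of 0.22, against -0.21 over the members. Of 16 genes of sterol and lipoprotein handling, 6 were higher and 1 lower; of 18 genes of fatty acid elongation, desaturation and storage, 10 were higher and 1 lower. Ch25h, which makes the oxysterol 25-hydroxycholesterol, had 158 counts over the 4 CCI ipsilateral libraries and 1 count over the 2 sham ipsilateral ones. The ratio of these, per library size, was 66.7 (95% interval 11.8 to 2652, counting error only), and the difference passed (adjusted p = 7.15e-08). Ch25h had 0.737, 0.698, 0.94 and 0.534 CPM in CCI contralateral libraries, against 0.297, 0.154 and 0.149 CPM in sham contralateral ones, low throughout.

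Plin2, which coats lipid droplets, had 50.2, 31.6, 56.7 and 48.5 CPM in CCI ipsilateral libraries, against 6.54 and 5.28 CPM in sham ipsilateral libraries. All injured hemispheres stood far above sham, by 7.91-fold (log2 fold change 2.98 ± 0.23 (SE), adjusted p = 4.36e-08). Fabp7, a fatty acid binding protein of astrocytes, had 66.1, 64.6, 59.3 and 73.0 CPM in CCI ipsilateral libraries, against 26.0 and 25.4 CPM in sham ipsilateral libraries (log2 fold change 1.36 ± 0.28 (SE), adjusted p = 0.00616). The 2 genes that fell were Acss2, which makes acetyl-CoA from acetate, and Vldlr, a lipoprotein receptor. Acss2 had 51.1, 52.6, 49.7 and 51.8 CPM in CCI ipsilateral libraries, against 64.2 and 59.5 CPM in sham ipsilateral libraries (log2 fold change -0.27 ± 0.08 (SE), adjusted p = 0.0134). Vldlr had 110.0, 112, 114 and 114 CPM in CCI ipsilateral libraries, against 119 and 136 CPM in sham ipsilateral libraries (log2 fold change -0.18 ± 0.07 (SE), adjusted p = 0.0476). Neither overlapped with sham, and both differences were small beside those of Plin2 and Fabp7. The part that the higher astrocyte and microglial marker sums have in the rises of the further genes was not tested.

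**Figure D5:**
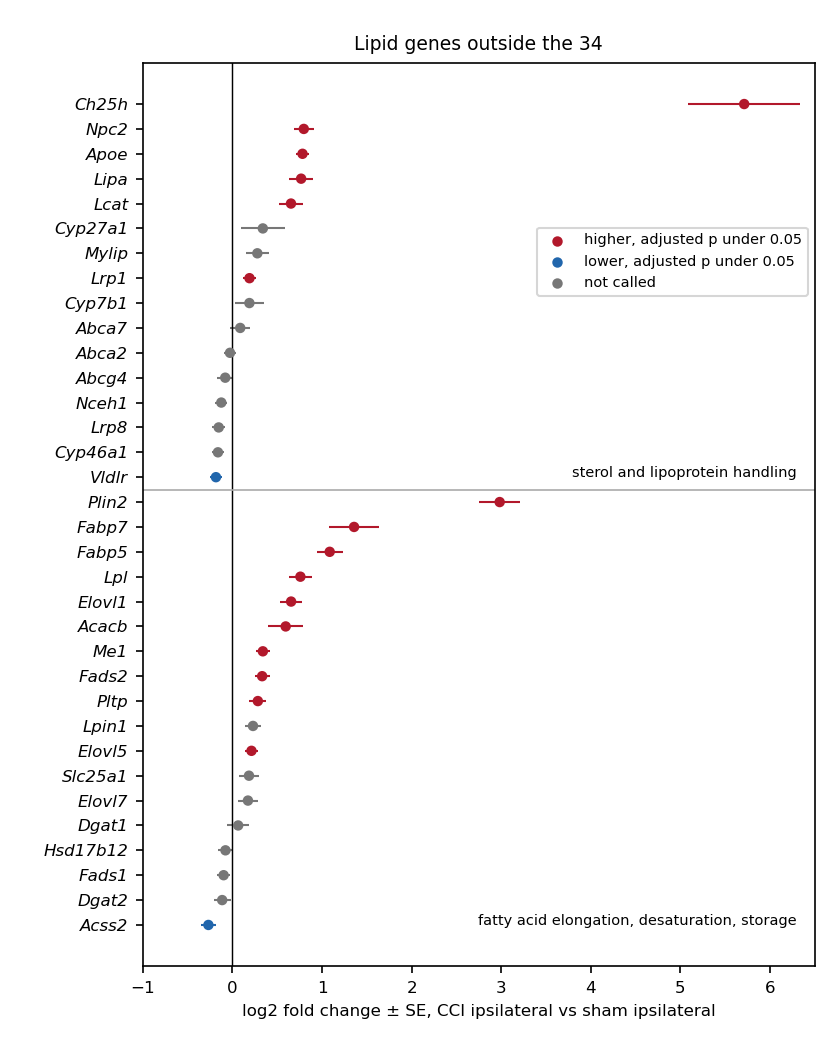
Log2 fold change with its SE in CCI ipsilateral against sham ipsilateral hemispheres for 34 tested genes of sterol and fatty acid handling outside the 34 members, red or blue where the adjusted p was under 0.05. There are 16 genes in red and 2 in blue, with Ch25h (1 sham count) and Plin2 farthest to the right.

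The authors' deposited table gives its own comparisons of the same groups. In it, 12 members were lower and 2 higher in the ipsilateral comparison at an adjusted p under 0.05, and 3 were lower and 1 higher between the hemispheres of CCI animals. It called 0 members in the contralateral and sham comparisons. For the genes with an unadjusted p under 0.05 here in the contralateral comparison, its estimates were smaller, except that of Insig1. They ran from -0.18 (Idi1) to -0.04 (Elovl6) for the lower genes and stood at 0.11 for Abca1. The authors' raw DESeq2 p for these ran from 0.35 (Srebf2) to 0.79 (Elovl6). Insig1 stood at -0.40 there, with a raw DESeq2 p of 0.0006. The authors' deposited table gave Abca1 a log2 estimate of 1.19 and Insig1 one of -0.82 in the ipsilateral comparison, beside 1.47 and -0.71 in the fit used here. Of the 19 members called here, 6 did not pass in the authors' deposited table: Cyp51 (-0.45, adjusted p = 0.0509), Sqle (-0.29, 0.0709), Sc5d (-0.27, 0.0937), Srebf2 (-0.25, 0.1437), Elovl6 (-0.20, 0.3526) and Dhcr7 (-0.09, 0.8272). The authors' deposited table put Lss at -0.33 (adjusted p = 0.008), which passed. Between the hemispheres of CCI animals its estimates were close to those of the fit used here. For Abca1 and Insig1 they were 1.17 and -0.42 in the authors' deposited table and 1.16 and -0.42 in the fit. Of the members called here in that comparison, Fdps, Fdft1, Insig1 and Abca1 passed in the authors' deposited table. The rest did not, with DESeq2 adjusted p from 0.0568 (Msmo1) to 0.5264 (Elovl6), Idi1 (0.2347) and Cyp51 (0.3409) among them. The headers of the authors' deposited table name a term of treatment, hemisphere and time, taken at day 4. The samples in that model and its full formula were not given in the sources used here.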

How the data were processed

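RSEM, named in the submitters' processing notes, gave the expected counts that the authors deposited for each gene, beside TPM values, per the file headers. The authors also deposited a table of DESeq2 comparisons with a log2 estimate, a signed fold change (a score), a raw p-value and an adjusted p-value per gene, per the file headers. The notes name bcl2fastq and the GRCm38 (mm10) genome; aligner and use of strand were not given in the sources used here.

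Counts (9.76% not whole) were rounded. One edgeR 4.0.16 quasi-likelihood model (R 4.3.3, robust, TMM scaling, filterByExpr, 4 group means, 13 libraries) tested 14875 genes, with Benjamini-Hochberg adjustment over all of them. CPM are TMM-scaled. Each SE is approximate, from dividing the size of the log2 fold change by the root of its F statistic. The procedure was tested on simulated counts with the same spread for every gene and no pairing by animal. That check does not cover the spread between the real replicates. Alternatives were other scalings, no filter, DESeq2 1.42.0, limma 3.58.1 on log2(TPM + 1) and log2(TPM + 0.1), 2 groups only, animal blocks and leaving out each library. Gene positions are from GENCODE M21. All replicate pairs differed by more than sampling noise (chi-square per degree of freedom 2.003 to 3.793), so none was counted as a duplicate.

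Equal numbers mark hemispheres of the same animal per the labels. Deviations from the group means correlated at 0.0035 to 0.0882 within animals and at -0.06 to 0.0268 between them, and these ranges overlap. Such deviations cancel within a group, which lowers the values between animals, so the correlations do not test the pairing. CCI and sham animals share no number. Values per library are given for every control, fatty acid and export gene, for the 3 largest and the smallest change in each other role, and for the 3 largest called changes each way among the further genes. The members and lists were chosen with earlier results of these data known.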

Additional observations from a re-analysis of the deposited data

Results flagged for a closer look

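Insig1 in the CCI ipsilateral hemisphere of animal 1 was at 55.0 CPM, while the other 3 CCI ipsilateral libraries lay close together, between 61.2 and 62.4 CPM. It was the 1 library that stood apart by Dixon's test among 66 groups of 4 checked, where chance alone gives about 1 in 20. The fall of Insig1 passed under every alternative tried in the ipsilateral comparison, the fit without this library included.

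The hemisphere effect differed between CCI and sham animals for 4 members by edgeR's test of the difference. The difference in log2 was -0.46 for Insig1, -0.36 for Cyp51, -0.35 for Msmo1 and 1.17 for Abca1. Abca1 passed under every alternative tried, while the call was lost under 4 alternatives for Insig1, 5 for Cyp51 and 15 for Msmo1, the random block for the animal among those of Msmo1 (adjusted p = 0.0536).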

How the results depend on the processing

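For members lower in CCI ipsilateral against sham ipsilateral hemispheres the count was 17 and became 11 with limma on log2(TPM + 1) without a filter; leaving out 1 library at a time gave 11 to 17, with 11 without sham ipsilateral animal 6. Members higher stayed at 2 under every setting except without that library (1 to 2). In the contralateral comparison the count of 0 became 3 with no filter on low counts and 2 with only the 2 groups compared, and stayed at 0 to 0 when 1 library was left out. Between the hemispheres of CCI animals, 11 lower became 5 and 2 higher became 1 with limma on log2(TPM + 1) without a filter; leaving out 1 library gave 9 to 13 lower and 2 to 2 higher. The replicate block gave 15 lower with the animal as a fixed effect and 14 as a random effect. Between sham hemispheres, 0 became 1 with the fixed replicate block, and leaving out 1 library gave 0 to 0. For the difference between the hemisphere effects, 4 members became 9 with no filter and 1 with limma on log2(TPM + 1), on log2(TPM + 0.1) and on log2(TPM + 1) without a filter. It became 6 with the fixed and 5 with the random replicate block, and leaving out 1 library gave 1 to 7: 7 without CCI ipsilateral animal 3, 1 without sham ipsilateral animal 6 and 2 without sham contralateral animal 8. The causes were not tested. No paired analysis was possible for CCI against sham because these animals share no number.

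Of 36 called gene results, 18 passed under every alternative tried, 11 of them in the ipsilateral comparison. Over 805 alternatives of called results, 726 kept direction and call, 79 lost the call and 0 reversed. Of 2891 alternatives of results not called, 56 passed and 166 had the other sign. With 2 sham ipsilateral libraries, the ipsilateral comparison and the difference between hemisphere effects rest most on animals 4 and 6. At 5604856 to 7955076 counts per library, Nr1h3 and Ch25h rest on few counts.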
